A study of Mus musculus with 16 samples.

Results

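The genes described are 35 genes of glycolysis and of the response to low oxygen, chosen by symbol: the enzymes from hexokinase to lactate dehydrogenase, the lactate carriers, the kinases that control phosphofructokinase and pyruvate dehydrogenase, the oxygen-sensing pathway and genes that hypoxia induces. They took 36 of the 22468 rows of the count table, because Aldoa had a second Ensembl ID, and all 36 rows passed the filter on low counts that left 13412 genes for testing. Messenger RNA was measured in whole ventricles of neonatal mice, taken above and below the ligation, in 4 groups of 4 samples: Chrna7 knockout after myocardial infarction (KO-MI), wild type after infarction (WT-MI), knockout after sham surgery (KO-SH) and wild type after sham surgery (WT-SH). Infarction in this model is made by ligating a coronary artery, and sham surgery leaves the artery open. The knockout line is the Jackson Laboratory line 003232, in which the receptor subunit Chrna7, an acetylcholine-gated channel of neurons and immune cells, is deleted, and the series title names the cholinergic anti-inflammatory pathway in heart regeneration as its subject. The labels give no exact age, time after surgery or litter, and do not say that each sample is 1 animal, so p-values measure only the spread between these samples. Because the tissue is a mixture, fewer cells of a type and less RNA per cell cannot be told apart in any value below.

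Glycolysis splits glucose into pyruvate, and lactate dehydrogenase turns pyruvate into lactate when oxidation is slow. The fetal and newborn heart relies on this route more than the adult heart, which turns to fatty acids as it matures. Cells sense oxygen through prolyl hydroxylases of the Egln family, which mark the alpha subunits of the hypoxia-inducible factors for destruction by the Vhl ubiquitin ligase. When oxygen falls, these factors, Hif1a and Epas1, accumulate and bind DNA at a short core motif. Hif1a raises the transcription of most glycolytic enzymes, and both factors raise that of many other genes.

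The libraries held 10711442 to 17223580 reads assigned to genes, so that 3 counts, taken as the floor of detection, correspond to 0.179 to 0.29 CPM, the unit of all levels below, which sets a gene's count against the scaled size of its library. Chrna7 itself had 0 to 4 counts in every library, KO and WT alike, which is too few to check the genotype labels. The 4 KO-SH libraries stood apart from all others on the first principal component of all genes, which held 25.5% of the variance. The labels give no extraction or sequencing batch, so a batch common to those 4 libraries and the group itself cannot be told apart. The library KO-MI 4 differed from its own group more than any other library did, with a chi-square per degree of freedom of 57.2 to 69.3 against its group mates, and its summed cardiomyocyte markers were the lowest of the series at 55200 CPM. Without it, 17 members rose and 3 fell with infarction in KO, in place of the 14 and 2 given below. Over all genes, 1370 rose and 1561 fell there, in place of 1145 and 1075. No member differed between KO and WT after infarction without KO-MI 4. The interaction then called 3 members up, in place of 1, and 2 down, with 340 of all genes up and 269 down, in place of 221 and 147.

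The core motif that hypoxia-inducible factors bind was looked for in the promoters of the members, as a description of their sequence. RefSeq promoters of the mouse build GRCm38.p6 were matched to 33 of the 35 genes (not Ndrg1 and Epas1), using the first listed start. The letters ACGTG or GCGTG, read on both strands, were found within the 300 bases from 250 before to 50 after the start in 26 of 33 members (78.8%), against 43.8% of 27025 promoters. ACGTG was in 19 members (57.6%, against 19.7% of all promoters) and GCGTG in 18 (54.5%, against 32.5%), with some members holding both. The palindrome CACGTG, which holds ACGTG on each strand, was in 7 members (21.2%, against 7.24%). In the 250 bases before the start, 7 members held neither motif, namely Vhl, Tpi1, Gpi1, Aldoa, Pkm, Hk1 and Pgam2. Of these, Aldoa had 3 listed starts and Pkm and Hk1 had 2 each, and only the first was searched. A match is a description of the letters and shows no binding. The members were chosen as genes of glycolysis and of the response to low oxygen, so a higher share than in all promoters is no result about these samples. The 27025 promoters were not matched to the members in GC content, and the counts do not separate members that moved from those that did not.

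The 250 bases before the start are shown for 6 members, 5′ to 3′ on the strand of the gene, with ACGTG or GCGTG on either strand in capitals. Ankrd37 (chr8:45999851-46000100, minus strand) and P4ha1 (chr10:59323046-59323295, plus strand) rose with infarction in both genotypes, Slc16a3 (chr11:120948817-120949066, plus strand) had the largest rise in KO, and Ldha (chr7:46845554-46845803, plus strand) held the most matches of the 6, namely 5 with each CACGTG counted on both strands. Pgam1 (chr19:41911621-41911870, plus strand) and Pgam2 (chr11:5803797-5804046, minus strand) encode the same enzymatic step and both rose in KO, one with 3 matches and the other with none. Matches were not limited to members that rose. In the same 250 bases, members called in no comparison held from 0 (Hk1) to 5 (Bnip3), and Slc16a1, which fell in KO, held 4.
Ankrd37: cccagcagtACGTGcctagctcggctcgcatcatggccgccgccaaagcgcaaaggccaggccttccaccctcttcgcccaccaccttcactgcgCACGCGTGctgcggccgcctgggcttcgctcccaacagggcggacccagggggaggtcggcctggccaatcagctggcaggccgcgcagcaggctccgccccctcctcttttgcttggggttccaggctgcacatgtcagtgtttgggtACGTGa
P4ha1: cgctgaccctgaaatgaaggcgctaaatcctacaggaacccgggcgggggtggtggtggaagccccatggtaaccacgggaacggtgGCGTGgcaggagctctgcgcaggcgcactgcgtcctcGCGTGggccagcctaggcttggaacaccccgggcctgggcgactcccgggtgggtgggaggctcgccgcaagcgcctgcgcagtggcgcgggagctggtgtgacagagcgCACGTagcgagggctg
Slc16a3: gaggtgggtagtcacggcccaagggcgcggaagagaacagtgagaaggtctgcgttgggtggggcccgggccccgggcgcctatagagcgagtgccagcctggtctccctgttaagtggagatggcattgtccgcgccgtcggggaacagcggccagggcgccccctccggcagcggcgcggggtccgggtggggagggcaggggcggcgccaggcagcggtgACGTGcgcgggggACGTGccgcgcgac
Ldha: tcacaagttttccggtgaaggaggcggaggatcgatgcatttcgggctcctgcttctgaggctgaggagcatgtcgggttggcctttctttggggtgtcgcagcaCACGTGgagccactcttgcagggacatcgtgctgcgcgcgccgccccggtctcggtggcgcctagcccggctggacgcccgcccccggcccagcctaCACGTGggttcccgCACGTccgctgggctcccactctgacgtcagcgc
Pgam1: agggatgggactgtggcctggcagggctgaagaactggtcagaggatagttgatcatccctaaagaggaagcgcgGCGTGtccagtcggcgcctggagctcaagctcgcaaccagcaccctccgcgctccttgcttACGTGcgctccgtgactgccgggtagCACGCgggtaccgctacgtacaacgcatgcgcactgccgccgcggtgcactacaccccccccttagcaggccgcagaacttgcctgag
Pgam2: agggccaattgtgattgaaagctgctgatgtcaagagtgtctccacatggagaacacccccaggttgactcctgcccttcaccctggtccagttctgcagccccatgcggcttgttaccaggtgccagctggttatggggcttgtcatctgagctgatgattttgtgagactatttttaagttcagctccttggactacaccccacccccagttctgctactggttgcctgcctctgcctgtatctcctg

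Over all 36 rows, KO-SH was the group that differed. In KO against WT after sham, 17 rows were lower and 4 higher by edgeR's quasi-likelihood test at an adjusted p under 0.05, where 7.74% of all 13412 genes were lower and 7.6% higher (15.3% called in either direction). In KO, 14 rows rose and 2 fell after infarction, against 8.54% of all genes called up and 8.02% called down (16.6% in all). In WT, 4 rows rose and none fell, against 1.32% of all genes called up and 0.932% called down (2.25% in all). After infarction, no member differed between KO and WT, where 2 of 13412 genes did (0.0149%, with 0.00746% higher and 0.00746% lower). There 3 of the 36 rows had an unadjusted p under 0.05, as did 638 of the 13412 genes. By DESeq2, 11 genes differed in that comparison and no member did. The median log2 change over the 36 rows was -0.31 for KO against WT after sham, 0.27 for infarction in KO, 0.10 for infarction in WT and -0.09 for KO against WT after infarction, beside medians of all genes between -0.01 and 0.01. With a correction of each library for transcript length and GC content, described below, the member medians were -0.16 for KO against WT after sham and 0.15 for infarction in KO, beside 0.005 and -0.03 for all genes.

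**Figure D1:**
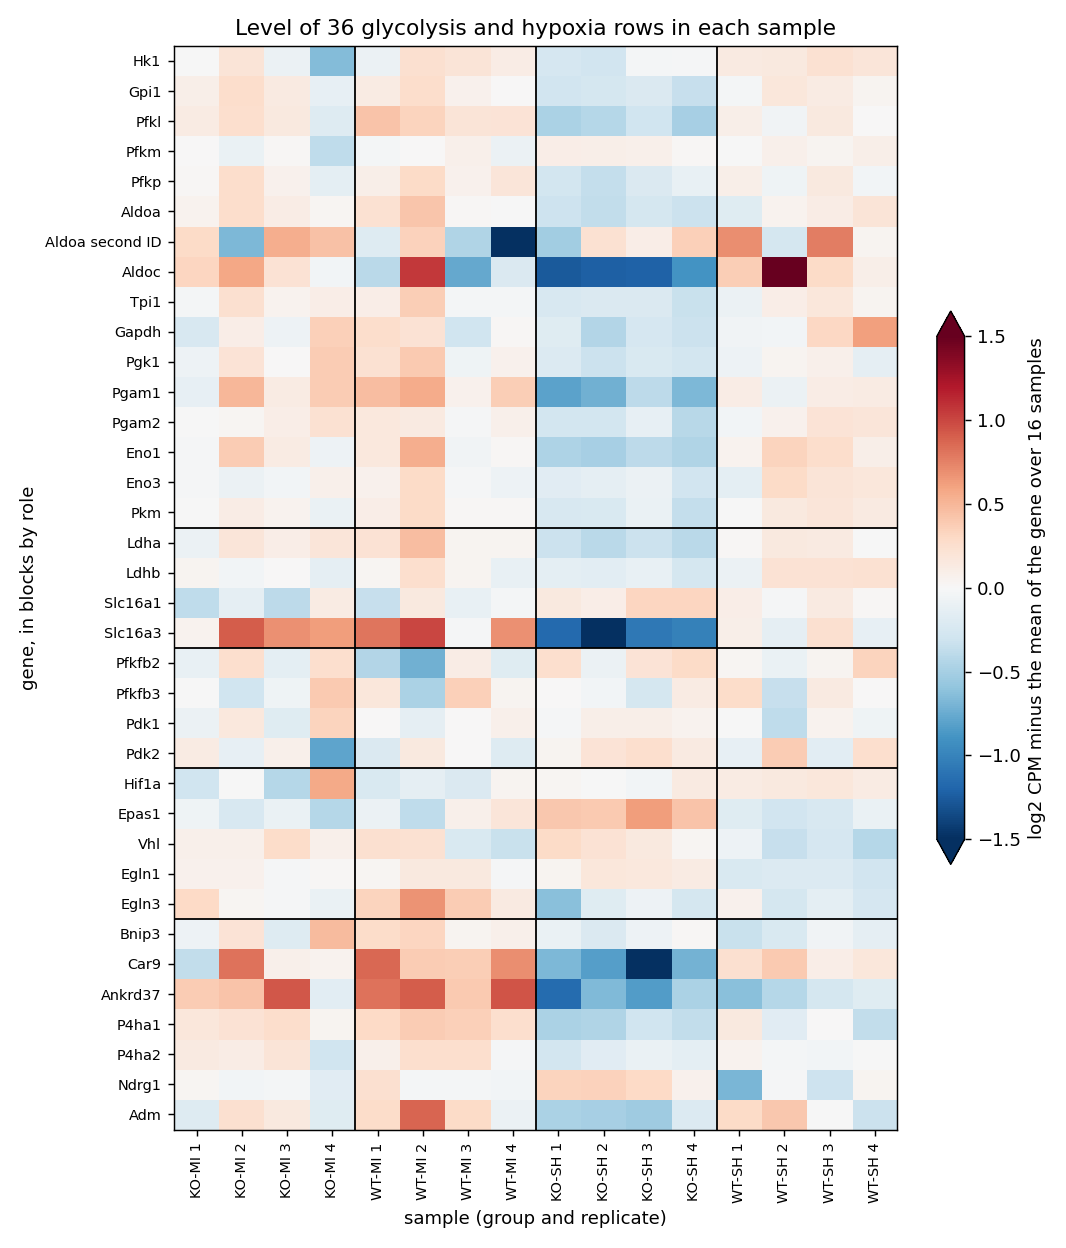
Level of each of the 36 rows (down) in each of the 16 samples (across, by group), as log2 CPM minus the mean of that gene over all samples, with colours saturating at -1.5 and 1.5. The 4 KO-SH columns are below the mean for most glycolytic enzymes and above it for Epas1, while none of the 36 rows is called between the 2 infarction groups.

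The comparisons share samples: KO-SH enters both infarction against sham in KO and KO against WT after sham. A member's values in both are therefore given side by side, with no count of agreement. The values of the groups did not overlap for 18 of 36 rows in infarction against sham in KO (23.9% of all genes), for 7 in infarction against sham in WT (8.22%), for 22 in KO against WT after sham (26.3%) and for 0 in KO against WT after infarction (2.11%). The test of the difference between the responses of the genotypes, the interaction, called 1 member up (Slc16a3) and 2 down (Epas1 and Egln1), where 1.65% of all genes were called up and 1.1% down (2.74% in all).

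Markers of other tissues moved with KO-SH. In KO against WT after sham, all 8 epicardial and mesothelial markers were lower, with summed levels of 27.7 to 35.3 CPM in KO-SH and 95.8 to 147 CPM in WT-SH. All 4 atrial markers were lower, at 272 to 607 CPM in KO-SH and 709 to 3320 CPM in WT-SH. Of 8 red cell markers, 7 were lower, at 1020 to 1450 CPM in KO-SH and 3010 to 4770 CPM in WT-SH, and 2 of 10 cardiomyocyte markers, at 77100 to 80300 CPM in KO-SH and 85000 to 98400 CPM in WT-SH. With infarction in KO, all 8 epicardial markers, 7 of 9 tested macrophage and monocyte markers and 6 of 8 neutrophil markers rose. Summed macrophage markers were 176 to 377 CPM in KO-MI and 94.5 to 109 CPM in KO-SH, and summed epicardial markers 48.0 to 129 CPM in KO-MI and 27.7 to 35.3 CPM in KO-SH. Markers of lung epithelium were called in neither of these comparisons, but their summed levels set 3 libraries apart. The sum was 342 CPM in KO-MI 4, against 46 to 63.6 CPM in the other KO-MI samples. It was 3.94 CPM in WT-MI 2, against 70.5 to 174 CPM in the others of WT-MI. In WT-SH 2 it was 3.2 CPM, against 63.3 to 96.3 CPM in the others of WT-SH. These same 3 libraries stand apart on the fourth principal component of all genes. With infarction in KO, 3 red cell markers rose (1160 to 1900 CPM in KO-MI and 1020 to 1450 CPM in KO-SH) and 1 atrial marker rose, while 1 cardiomyocyte marker fell. In WT, 2 macrophage markers rose, and 5 red cell markers and 1 epicardial marker fell with infarction. Of 7 tested skeletal muscle markers, 2 were lower in KO than in WT after sham (sums of 35 to 47.1 CPM in KO-SH and 42.3 to 50.6 CPM in WT-SH), 1 rose with infarction in KO and 1 fell in WT. The part of these cell types in the changes of the members was not tested. Leaving haemoglobin and mitochondrially encoded genes out of the scaling lost only the calls of Eno3 and Pfkp after sham among the members.

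The glycolytic enzymes made up most of the members that were low in KO-SH. Of their 16 rows, 12 were lower in KO than in WT after sham, 9 rose with infarction in KO, and 0 changed with infarction in WT by edgeR or DESeq2, where 3 had an unadjusted p under 0.05. In the interaction, 0 of the 16 passed by edgeR and 2 by DESeq2, which called 632 of the 12561 genes it tested there. By edgeR 8 of the 16 had an unadjusted p under 0.05, as did 2428 of all 13412 genes. Of the 16 values 15 were positive (median log2 0.30), as were 6754 of all 13412. The summed level of the 17 enzymes from hexokinase to lactate dehydrogenase was 15200 ± 679 CPM in KO-MI, 16000 ± 1700 CPM in WT-MI, 12400 ± 467 CPM in KO-SH and 15700 ± 1060 CPM in WT-SH (SD, n = 4 each). The 4 KO-SH sums, 11910 to 13040 CPM, lay below all 12 others, which started at 14120 CPM. Per kilobase of transcript, the enzyme with the highest count in every group was Aldoa, the aldolase of muscle, at 1810, 1890, 1340 and 1730 CPM per kilobase in KO-MI, WT-MI, KO-SH and WT-SH, followed by Eno3 and Ldhb. Gapdh stood at 160, 162, 125 and 181 CPM per kilobase in the same groups. It shares stretches of at least 100 bases at 97% identity or more with 49 other annotated genes. Its count, its place in this order and its part in the sum are therefore uncertain.

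Pgam1, a phosphoglycerate mutase found in most tissues, changed the most of the enzymes that kept their call in every alternative. It had 68.7, 106, 81.3 and 97.7 CPM in KO-MI, 103, 110, 78.4 and 96.3 CPM in WT-MI, 42.9, 45.3, 57.2 and 47.1 CPM in KO-SH, and 81.1, 70.3, 80.9 and 81.3 CPM in WT-SH. All KO-SH values were below all others, and the other 3 groups overlapped in part. Pgam1 rose 1.84-fold with infarction in KO (log2 0.88 ± 0.13, SE; adjusted p = 0.000306) and was lower in KO than in WT after sham (log2 -0.71 ± 0.13, adjusted p = 0.00125). In WT its change with infarction was 0.31 ± 0.13 (adjusted p = 0.245).

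Eno1, the enolase found in most tissues, had 533, 701, 585 and 512 CPM in KO-MI, 601, 786, 517 and 543 CPM in WT-MI, 389, 380, 411 and 395 CPM in KO-SH, and 556, 677, 644 and 574 CPM in WT-SH. The KO-SH samples again lay below every other sample. Eno1 rose in KO with infarction (log2 0.56 ± 0.12, adjusted p = 0.00437), did not pass in WT (-0.0022 ± 0.12, adjusted p = 0.995), and was lower in KO than in WT after sham (-0.64 ± 0.12, adjusted p = 0.0016). Its interaction of 0.57 ± 0.17 had an adjusted p of 0.0784. That interaction passed without KO-MI 4 (0.62, adjusted p = 0.0345) and without WT-MI 2 (0.71, adjusted p = 0.00667).

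Pfkl, the liver-type phosphofructokinase, had 335, 366, 340 and 267 CPM in KO-MI, 411, 387, 351 and 354 CPM in WT-MI, 221, 228, 250 and 217 CPM in KO-SH, and 325, 296, 340 and 308 CPM in WT-SH. Only KO-SH stood apart from every other group, and KO-MI 4 was the lowest of the infarction samples. Pfkl rose in KO with infarction (log2 0.52 ± 0.09, adjusted p = 0.00149) and was lower in KO than in WT after sham (-0.47 ± 0.09, adjusted p = 0.00236). Pfkm, the muscle-type enzyme of the same step, had 737 to 1030 CPM over the 16 samples and was called in no comparison (log2 -0.17 ± 0.09 with infarction in KO and 0.02 ± 0.09 for KO against WT after sham).

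**Figure D2:**
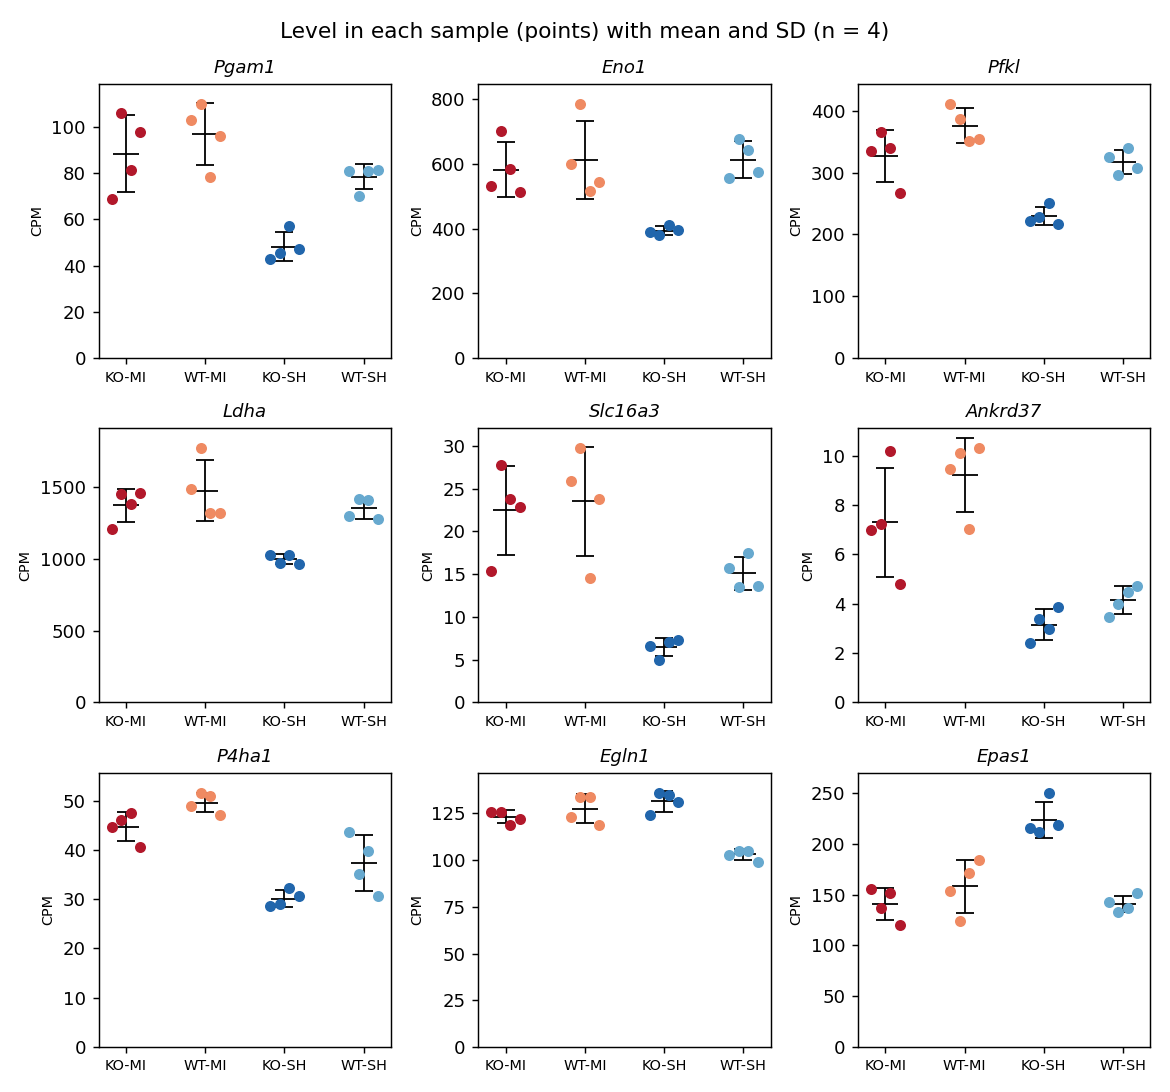
Level in CPM of 9 members in each sample (points), with mean and SD (bars, n = 4), for KO-MI, WT-MI, KO-SH and WT-SH from left to right; each axis starts at 0. KO-SH is the lowest group for Pgam1, Eno1, Pfkl, Ldha and Slc16a3 and the highest for Epas1, while both infarction groups are above both sham groups for Ankrd37.

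The other enzymes that were lower in KO than in WT after sham were Gpi1, Pfkp, Aldoa, Tpi1, Gapdh, Pgam2, Eno3, Pkm and Aldoc, with log2 changes of -0.27 (Pfkp) to -0.53 (Gapdh) for the first 8. Gpi1, Pfkp, Aldoa, Tpi1, Pgam2 and Pgk1 also rose with infarction in KO, by 0.30 (Pfkp) to 0.44 (Aldoa) on the log2 scale. Of the 8 fits that left out 1 sham library, the call after sham was lost in 7 for Eno3, in 6 each for Pfkp and Tpi1, in 5 for Gapdh and in 4 for Aldoa, with adjusted p of 0.0504 to 0.133. Eno3 and Pfkp lost it under the replicate block too. For the rises in KO, the fits left out 1 KO-MI or KO-SH library. There Pfkp lost its call in 5 (without KO-MI 2, KO-MI 3, KO-SH 1, KO-SH 2 or KO-SH 3). Tpi1 lost it in 2 (without KO-MI 2 or KO-SH 4) and Pgk1 in 1 (without KO-SH 2). Aldoc, a minor aldolase known from the brain, had a log2 change of -2.77 ± 0.69 after sham, which rested on 28.1 CPM in WT-SH 2, against 3.48 to 4.24 CPM in the other WT-SH samples and 1.37 to 1.76 CPM in KO-SH. Without WT-SH 2 the change was -1.40 and still called, but the call was lost in a fit of only the samples compared (-2.78, adjusted p = 0.0812), and DESeq2 gave Aldoc no adjusted p. Hk1, the hexokinase of most tissues, the second Aldoa ID (0.343 to 1.92 CPM) and Pfkm were called nowhere by edgeR as fitted here. In a fit of only the samples compared, Hk1 (-0.32, adjusted p = 0.00705) and Pgk1 (-0.24, adjusted p = 0.0239) passed as lower after sham. Pkm passed as higher with infarction in KO by DESeq2 (0.24, adjusted p = 0.0225), with upper quartile scaling (0.27, adjusted p = 0.0384), with a mean of at least 50 counts (0.25, adjusted p = 0.0495) and without KO-MI 4 (0.27, adjusted p = 0.0231).

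The number of enzymes called changed with a correction for the make-up of the transcripts. When each library was corrected for its trend with the length and GC content of the principal transcript, 8 of 16 enzyme rows were lower in KO than in WT after sham, in place of 12, and 7 rose with infarction in KO, in place of 9. Pgam1, Eno1 and Pfkl kept both calls, at -0.58, -0.51 and -0.47 after sham and 0.72, 0.43 and 0.52 with infarction in KO. Tpi1 and Pgam2 lost both, Aldoa, Gapdh and Eno3 lost the one after sham, and Hk1 gained one there (-0.32, adjusted p = 0.0418). Pfkm passed as lower after infarction in KO (-0.25, adjusted p = 0.0122). Over all 13392 genes in that fit, 975 were lower after sham and 911 rose with infarction in KO, against 1038 and 1145 of 13412 without the correction. Of all genes called with infarction in KO, 40.4% were higher with the correction, against 51.6% without it. Leaving out 1 library at a time gave 7 to 11 lower enzyme rows after sham and 7 to 10 that rose in KO. Gapdh shares stretches of at least 100 bases at 97% identity or more with 49 other annotated genes, so its count is uncertain, and Pgk1 does with 3, Eno1 and Gpi1 with 2 each.

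**Figure D3:**
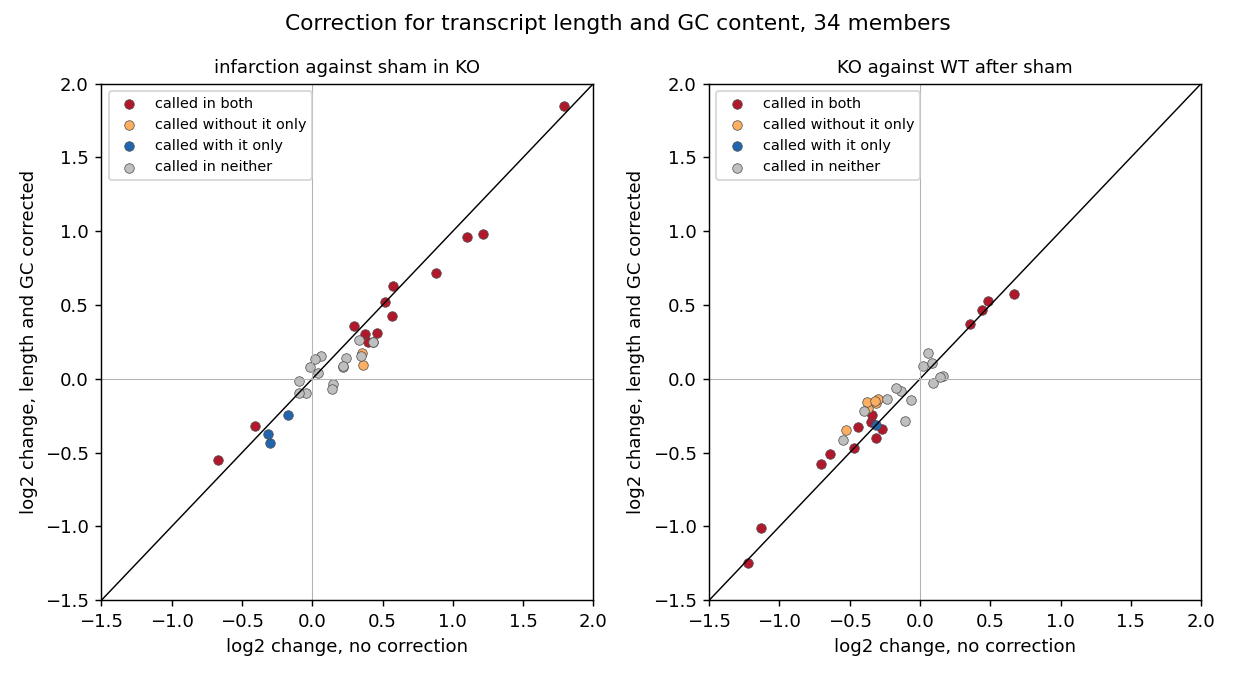
Log2 change of 34 members without (across) and with (up) the correction for transcript length and GC content, for infarction against sham in KO (left) and KO against WT after sham (right); the line marks equal values, and the second Aldoa ID and Aldoc are left out. Colours mark the genes called at an adjusted p of 0.05 in both fits, in one or in neither. Slc16a3, Car9, Ankrd37 and Pgam1 are the 4 largest changes with infarction in KO in both fits.

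Of the 4 genes that make and carry lactate, 3 were lower in KO than in WT after sham (Ldha, Ldhb and Slc16a3), and with infarction in KO 2 rose and 1 fell. Slc16a3 had the largest rise with infarction in KO of all members. It encodes MCT4, the carrier known to export lactate from glycolytic cells. It had 15.4, 27.8, 23.8 and 22.8 CPM in KO-MI, 25.9, 29.7, 14.6 and 23.8 CPM in WT-MI, 6.57, 5.0, 7.03 and 7.30 CPM in KO-SH, and 15.7, 13.5, 17.5 and 13.6 CPM in WT-SH. Every KO-SH value lay below every value of the other 3 groups. Slc16a3 rose 3.47-fold with infarction in KO (log2 1.79 ± 0.20, adjusted p = 6.44e-05) and was lower in KO than in WT after sham (-1.22 ± 0.21, adjusted p = 0.000801). In WT the change with infarction was 0.65 ± 0.19 and missed the threshold (adjusted p = 0.0853). That rise in WT passed by DESeq2 (0.65, adjusted p = 0.0405) and without WT-MI 3 (0.81, adjusted p = 0.0116). The interaction was 1.15 ± 0.28 (adjusted p = 0.0302). It lost its call when any 1 of 8 libraries was left out (KO-MI 2, KO-MI 3, WT-MI 4, any of the 4 KO-SH or WT-SH 3), with log2 values of 1.03 to 1.21 and adjusted p of 0.0505 to 0.0761. It was also lost with the replicate number as a block (1.15, adjusted p = 0.0526).

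Slc16a1, which encodes MCT1, the carrier for lactate uptake in heart muscle, went the other way in KO. It had 101, 119, 99.8 and 143 CPM in KO-MI, 103, 145, 121 and 128 CPM in WT-MI, 145, 140, 164 and 164 CPM in KO-SH, and 141, 130, 144 and 133 CPM in WT-SH. KO-SH was the highest group, and only KO-MI 4 at 143 CPM reached into it from KO-MI. Slc16a1 fell with infarction in KO by 0.41 ± 0.11 on the log2 scale (adjusted p = 0.019). That call was lost without KO-MI 1, KO-MI 3, KO-SH 3 or KO-SH 4 (-0.37 to -0.34, adjusted p 0.0544 to 0.0697). It was also lost in 2 other settings (-0.39 to -0.27, adjusted p 0.0642 to 0.0692).

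Ldha, the lactate dehydrogenase subunit that favours lactate formation, had 1210, 1450, 1380 and 1460 CPM in KO-MI, 1490, 1770, 1320 and 1320 CPM in WT-MI, 1030, 969, 1030 and 966 CPM in KO-SH, and 1300, 1420, 1410 and 1280 CPM in WT-SH. KO-SH lay below all other samples. It rose with infarction in KO (log2 0.46 ± 0.10, adjusted p = 0.00381) and was lower in KO than in WT after sham (-0.44 ± 0.10, adjusted p = 0.00481). Ldhb, the subunit typical of heart muscle, had 1230, 1160, 1200 and 1090 CPM in KO-MI, 1220, 1420, 1230 and 1100 CPM in WT-MI, 1080, 1070, 1100 and 994 CPM in KO-SH, and 1120, 1390, 1390 and 1400 CPM in WT-SH. Ldhb was lower in KO than in WT after sham (-0.32 ± 0.09, adjusted p = 0.0245), with WT-SH 1 close to KO-SH and the other 3 WT-SH samples well above. The Ldhb call was lost without KO-SH 2, KO-SH 4, WT-SH 2, WT-SH 3 or WT-SH 4 (-0.32 to -0.29, adjusted p 0.0529 to 0.0777) and with the length and GC correction (-0.15, adjusted p = 0.192).

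**Figure D4:**
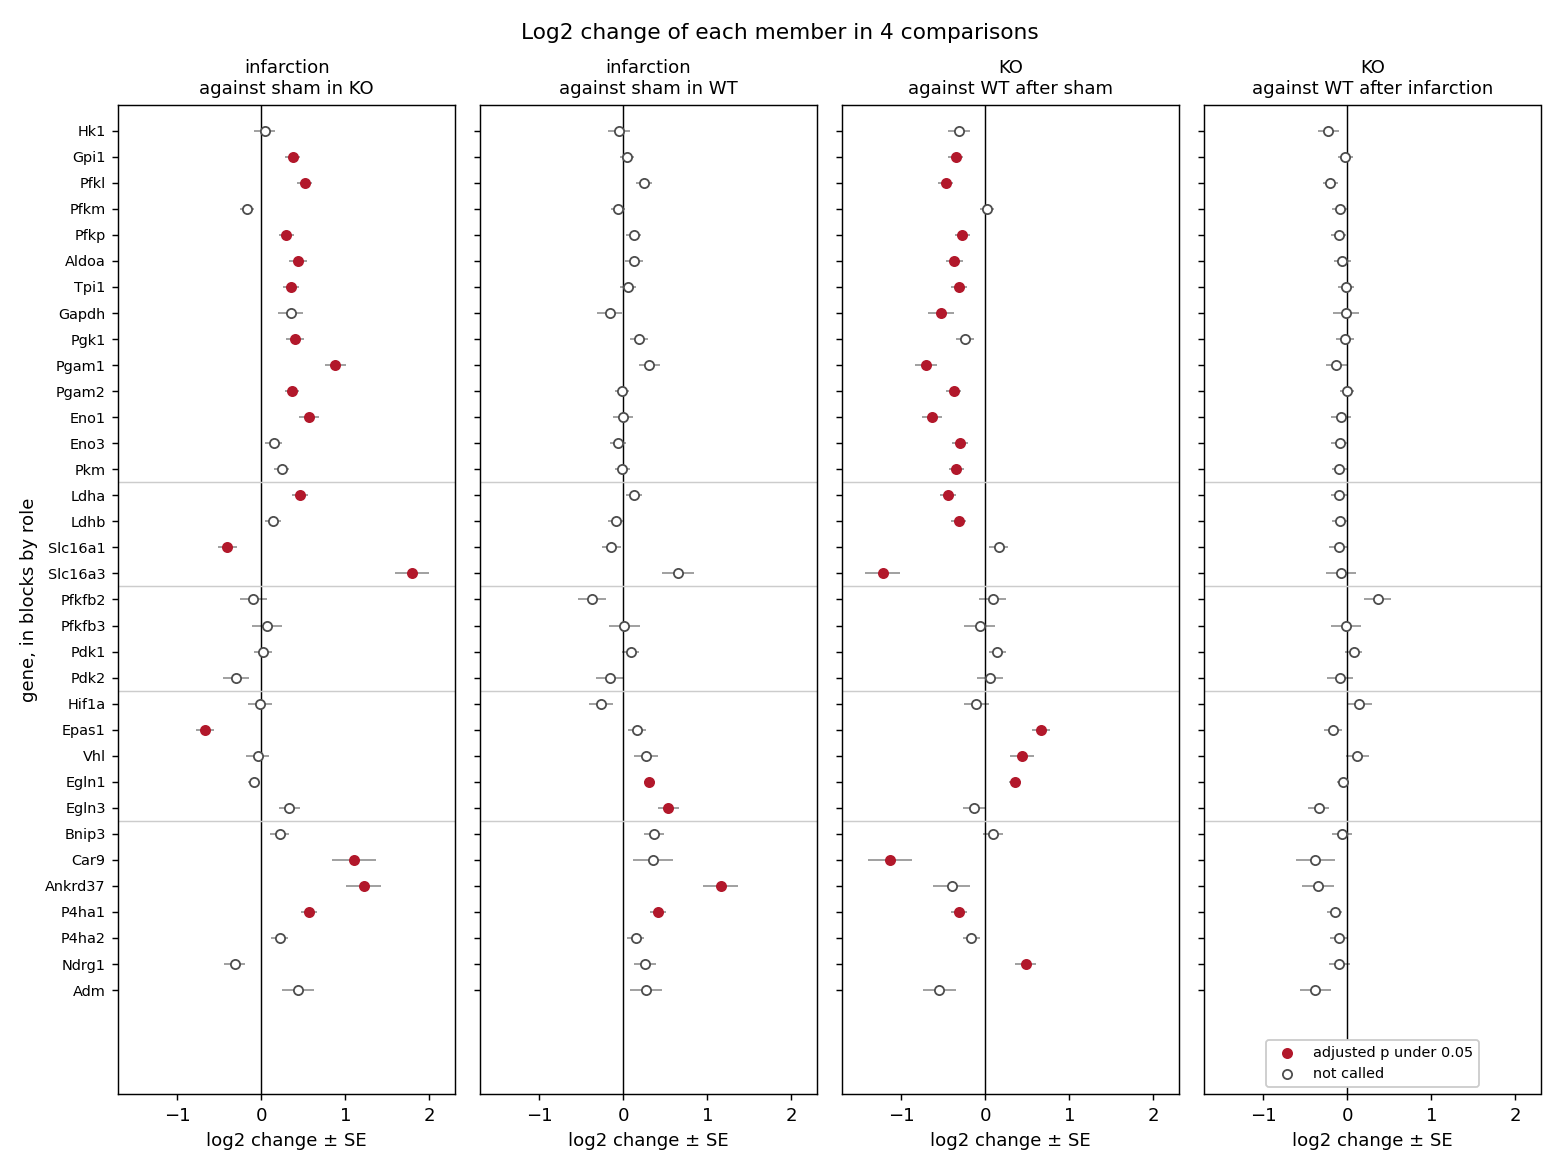
Log2 change ± SE (across) of 34 members (down, in blocks by role) in 4 comparisons; filled points passed an adjusted p of 0.05, and the second Aldoa ID and Aldoc are left out for their wide errors. Filled points lie right of 0 for most enzymes with infarction in KO and left of 0 in KO against WT after sham, and none is filled in KO against WT after infarction.

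The share of counts that each isoform takes within its step was compared between groups. Pfkl and Pfkp together made 35.6 ± 1.99% of phosphofructokinase counts in KO-MI, 36.8 ± 1.92% in WT-MI, 26.5 ± 1.10% in KO-SH and 32.6 ± 1.89% in WT-SH (SD, n = 4 each). Slc16a3 made 16.3 ± 3.23%, 15.9 ± 3.87%, 4.03 ± 0.396% and 9.89 ± 0.731% of the counts of both lactate carriers in KO-MI, WT-MI, KO-SH and WT-SH. The share of Pgam1 was 11.4%, 12.3%, 8.28% and 10.2% in the same groups, and that of Eno1 25.1%, 24.7%, 20.1% and 24.1%. For these 4 shares, no KO-SH sample overlapped with KO-MI or with WT-SH. Ldha made 54.0%, 54.1%, 48.5% and 50.6% of lactate dehydrogenase counts, with KO-SH overlapping WT-SH. The two-sided exact permutation test of 4 against 4 samples cannot go below p = 0.0286, and after adjustment over 24 tests that became 0.0624, so no share passed the threshold. Shares per transcript length gave the same non-overlaps.

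**Figure D5:**
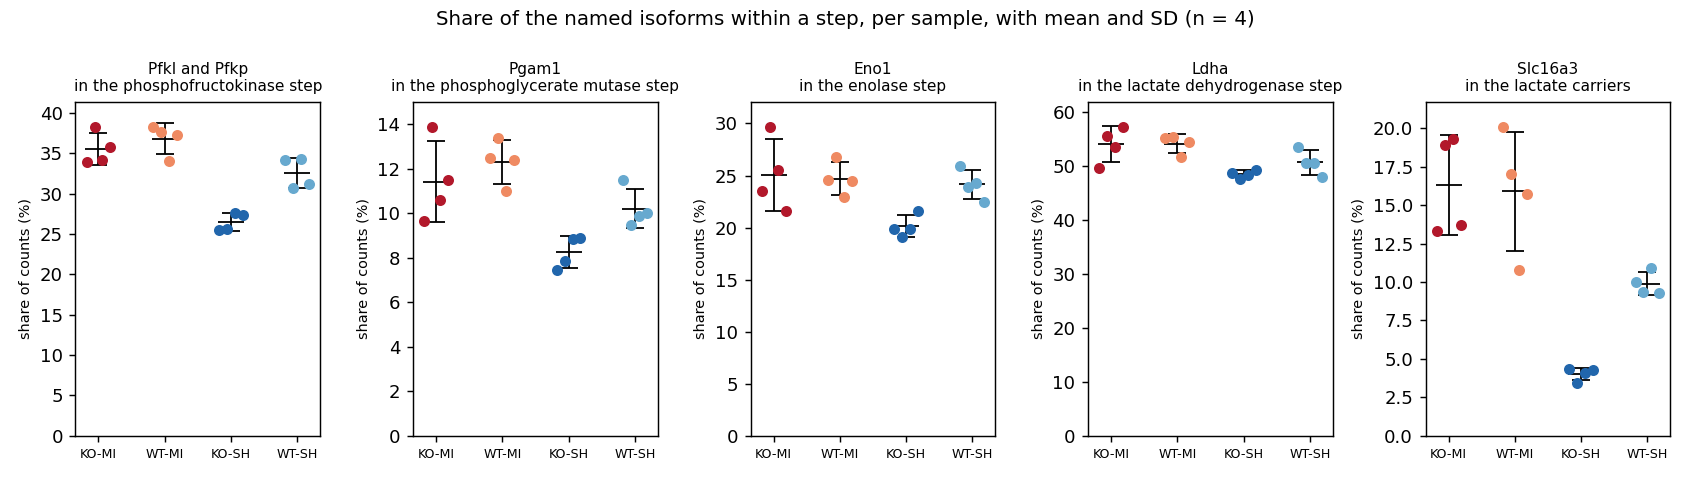
Share of counts (%) of the named isoforms within their step in each sample (points), with mean and SD (bars, n = 4), for KO-MI, WT-MI, KO-SH and WT-SH; each axis starts at 0. The KO-SH points are the lowest group in the 5 panels, and overlap WT-SH only in that of Ldha.

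No control kinase passed the test. Pfkfb2 and Pfkfb3 make the activator of phosphofructokinase, and Pdk1 and Pdk2 restrain pyruvate dehydrogenase. None was called in any of the 5 comparisons by edgeR or DESeq2, and only Pfkfb2 had an unadjusted p under 0.05, in infarction in WT and in KO against WT after infarction. In the 4 comparisons between groups their log2 changes ran between -0.37 (Pfkfb2, infarction in WT) and 0.36 (Pfkfb2, KO against WT after infarction), with SE of 0.10 to 0.18. Over the 16 samples Pfkfb2 and Pfkfb3 had 5.55 to 11.5 and 5.37 to 9.75 CPM, and Pdk1 and Pdk2 had 58.7 to 96.3 and 106 to 239 CPM. With the length and GC correction, Pdk2 passed as lower after infarction in KO (-0.44, adjusted p = 0.0242).

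Of the 5 oxygen-sensing genes, Epas1, Egln1 and Vhl were higher in KO than in WT after sham, and Hif1a and Egln3 were not called there (log2 -0.11 and -0.13). Epas1 encodes the alpha subunit of HIF-2, which is abundant in endothelium. It had 155, 137, 151 and 120 CPM in KO-MI, 153, 124, 171 and 184 CPM in WT-MI, 215, 212, 250 and 218 CPM in KO-SH, and 143, 133, 137 and 151 CPM in WT-SH. All 4 KO-SH values exceeded every other value. Epas1 was higher in KO than in WT after sham (log2 0.67 ± 0.11, adjusted p = 0.000449) and fell with infarction in KO (-0.67 ± 0.11, adjusted p = 0.000646), against 0.16 ± 0.11 in WT (adjusted p = 0.516). The interaction of -0.83 ± 0.15 (adjusted p = 0.00593) was the only one among members that kept its call in every alternative run. Summed endothelial markers were 1640 to 1730 CPM in KO-SH and 1380 to 1540 CPM in WT-SH, with 2 of 6 markers higher in KO, and their part in the result was not tested.

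Egln1, which encodes PHD2, the main oxygen-sensing hydroxylase, had 126, 126, 119 and 122 CPM in KO-MI, 123, 134, 134 and 119 CPM in WT-MI, 124, 136, 135 and 131 CPM in KO-SH, and 103, 105, 105 and 99.2 CPM in WT-SH. Here WT-SH was the low group, and no value of it reached the other 3 groups. Egln1 rose with infarction in WT (log2 0.31 ± 0.07, adjusted p = 0.0195) and did not pass in KO (-0.09 ± 0.07, adjusted p = 0.362), and it was higher in KO than in WT after sham (0.35 ± 0.07, adjusted p = 0.00195). The interaction was -0.40 ± 0.10 (adjusted p = 0.0273). The rise in WT lost its call without WT-MI 1, WT-SH 3 or WT-SH 4 (0.29 to 0.32, adjusted p 0.0521 to 0.059). It was also lost in a fit of only the samples compared and without the 3 libraries with almost no Y-linked reads, named below (0.31 to 0.32, adjusted p 0.0592 to 0.0812). The interaction lost its call without KO-MI 2, KO-MI 3, WT-MI 3, KO-SH 2, KO-SH 3 or KO-SH 4 (-0.41 to -0.37, adjusted p 0.0513 to 0.0666). Without those 3 libraries, and with median transcript lengths in the length and GC correction, it was lost as well (-0.40 to -0.35, adjusted p 0.0675 to 0.0962).

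Egln3, which encodes the hydroxylase PHD3 and is itself induced by hypoxia, had 43.0, 35.9, 34.6 and 32.7 CPM in KO-MI, 44.3, 55.8, 45.7 and 38.5 CPM in WT-MI, 22.7, 31.0, 33.3 and 29.2 CPM in KO-SH, and 36.7, 29.3, 31.8 and 29.5 CPM in WT-SH. The WT-MI values lay above all WT-SH values, and KO-MI and KO-SH overlapped. Egln3 rose with infarction in WT (log2 0.54 ± 0.13, adjusted p = 0.0288), and its change in KO was 0.33 ± 0.13 (adjusted p = 0.0756). The difference between those responses was -0.21 ± 0.18 (adjusted p = 0.582). The rise in WT lost its call without WT-MI 1, WT-MI 2, WT-SH 2, WT-SH 3 or WT-SH 4 (0.43 to 0.55, adjusted p 0.0744 to 0.0855).

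Vhl had 8.36, 8.35, 9.58 and 8.35 CPM in KO-MI, 9.38, 9.25, 6.77 and 6.27 CPM in WT-MI, 9.63, 9.19, 8.74 and 8.10 CPM in KO-SH, and 7.52, 6.24, 6.67 and 5.90 CPM in WT-SH. It was higher in KO than in WT after sham (log2 0.44 ± 0.14, adjusted p = 0.0432), without overlap between these groups. The call was lost in 7 of the 8 fits that left out 1 of those libraries, all but the one without WT-SH 1 (0.39 to 0.48, adjusted p 0.0548 to 0.112). It was also lost in 4 other settings (0.41 to 0.50, adjusted p 0.0529 to 0.0821). Hif1a had 94.1 to 188 CPM over the 16 samples, with the highest value in KO-MI 4, and was called in no comparison by edgeR as fitted here. Without KO-MI 4, Hif1a was lower in KO after infarction than after sham (-0.27, adjusted p = 0.0363).

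Among the hypoxia-induced genes, Ankrd37 and P4ha1 rose with infarction in both genotypes, and by edgeR as fitted here no other member did. By DESeq2 Slc16a3 also passed in both, and with upper quartile scaling Egln3 did (log2 0.36 in KO, adjusted p = 0.0496). Ankrd37 encodes an ankyrin-repeat protein whose transcription depends on HIF-1. It had 6.99, 7.23, 10.2 and 4.80 CPM in KO-MI, 9.46, 10.1, 7.05 and 10.3 CPM in WT-MI, 2.41, 3.38, 2.99 and 3.85 CPM in KO-SH, and 3.46, 3.98, 4.48 and 4.74 CPM in WT-SH. All infarction samples were above all sham samples. It rose 2.32-fold in KO (log2 1.22 ± 0.21, adjusted p = 0.000967) and 2.23-fold in WT (1.16 ± 0.20, adjusted p = 0.00519), and both calls were kept in every alternative. The interaction was 0.06 ± 0.29 (adjusted p = 0.936), so the difference between those responses was small beside its error. Annotated exons of Lrp2bp on the opposite strand cover 22.7% of Ankrd37's exons, and the strand setting of the counting is not given in the sources used here.

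P4ha1, a subunit of the prolyl hydroxylase that stabilises collagen, had 44.7, 46.1, 47.5 and 40.7 CPM in KO-MI, 48.9, 51.6, 50.9 and 47.2 CPM in WT-MI, 28.6, 29.0, 32.3 and 30.6 CPM in KO-SH, and 43.7, 35.2, 39.8 and 30.6 CPM in WT-SH. Infarction and sham did not overlap within either genotype, and WT-SH was the most spread group. P4ha1 rose in KO (log2 0.57 ± 0.09, adjusted p = 0.000786) and in WT (0.41 ± 0.09, adjusted p = 0.0257), and was lower in KO than in WT after sham (-0.31 ± 0.10, adjusted p = 0.034). The rise in WT lost its call without WT-MI 1, WT-MI 2, WT-SH 2 or WT-SH 4 (0.32 to 0.41, adjusted p 0.0543 to 0.0818). That rise was also lost in a fit of only the samples compared (0.42, adjusted p = 0.0671). The difference after sham lost its call without KO-SH 1, KO-SH 2, KO-SH 4, WT-SH 1 or WT-SH 3 (-0.32 to -0.23, adjusted p 0.0669 to 0.11). It was lost too without the 3 libraries with almost no Y-linked reads, named below (-0.21, adjusted p = 0.223).

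Car9, a carbonic anhydrase of the cell surface and a standard marker of hypoxia in tumours, had 1.92, 4.35, 2.62 and 2.58 CPM in KO-MI, 4.52, 3.22, 3.20 and 4.03 CPM in WT-MI, 1.56, 1.40, 0.822 and 1.52 CPM in KO-SH, and 2.94, 3.27, 2.65 and 2.80 CPM in WT-SH. KO-SH lay below all others. Car9 rose in KO with infarction (log2 1.10 ± 0.26, adjusted p = 0.0077) and was lower in KO than in WT after sham (-1.13 ± 0.26, adjusted p = 0.00704), and both calls were kept in every alternative. In WT the change was 0.35 ± 0.24 (adjusted p = 0.521).

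Ndrg1, a stress-response gene that hypoxia induces in many cells, had 21, 20.1, 20.3 and 18.3 CPM in KO-MI, 24.4, 20.2, 20.3 and 20.1 CPM in WT-MI, 26.1, 26.2, 25.3 and 21.6 CPM in KO-SH, and 12.8, 20.4, 16.6 and 21.3 CPM in WT-SH. In contrast to Car9, the KO-SH samples were the highest of the sham samples. Ndrg1 was higher in KO than in WT after sham (log2 0.48 ± 0.13, adjusted p = 0.0158), and was not called after leaving out the 3 libraries with almost no Y-linked reads, WT-SH 1, KO-SH 2 and KO-MI 1 (0.33, adjusted p = 0.111). With the length and GC correction Ndrg1 also passed as lower after infarction in KO (-0.37, adjusted p = 0.0303) and in the interaction (-0.61, adjusted p = 0.0425), which also passed by DESeq2 (-0.58, adjusted p = 0.0488), against an adjusted p of 0.0958 by edgeR as fitted here. Bnip3, a mitophagy receptor, P4ha2, the sister subunit of P4ha1, and Adm, the vasodilator peptide adrenomedullin, were called in no comparison by edgeR as fitted here. Adm passed as lower after sham with only the samples compared (-0.55, adjusted p = 0.0211) and with the replicate block (-0.52, adjusted p = 0.0479). P4ha2 passed as higher with infarction in KO without KO-MI 4 (0.31, adjusted p = 0.0109). With median transcript lengths in the length and GC correction, Bnip3 passed as higher with infarction in WT (0.36, adjusted p = 0.0468). Adm had 4.93 to 6.17 CPM in KO-SH and 5.70 to 9.43 CPM in WT-SH (log2 -0.55 ± 0.20, adjusted p = 0.0628), and Bnip3 in WT had 49.0 to 59.5 CPM after infarction and 37.8 to 45.9 CPM after sham (0.37 ± 0.12, adjusted p = 0.119).

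Of 89 other genes of these pathways, 83 were tested. After sham, 11 were higher and 15 lower in KO than in WT. With infarction, 16 rose and 7 fell in KO, and 4 rose and 2 fell in WT. None differed between the genotypes after infarction by edgeR, DESeq2 or any other setting. The interaction called 6 up and 1 down. Leaving out 1 library gave 3 to 14 that fell in KO (3 without KO-MI 2 or KO-MI 3, and 14 without KO-MI 4), 0 to 3 that rose in WT (0 without WT-MI 1, WT-SH 1 or WT-SH 4), and 2 to 8 up in the interaction (2 or 3 without KO-MI 2, KO-MI 3, any WT-MI but WT-MI 2, any KO-SH but KO-SH 3, WT-SH 2 or WT-SH 3). Over all genes, 577 fell in KO without KO-MI 2, 647 without KO-MI 3 and 1561 without KO-MI 4, against 1075 in the main fit. In WT, 44, 96 and 92 of all genes rose without WT-MI 1, WT-SH 1 and WT-SH 4, against 177. The interaction called 119 to 421 of all genes up, against 221. After sham, leaving out 1 library gave 7 to 10 higher (7 without KO-SH 3 or WT-SH 4) and 10 to 14 lower. Of all genes, 578 to 995 were higher and 651 to 1082 lower there, against 1019 and 1038. With the length and GC correction 14 fell in KO, where 1342 of 13392 genes fell. DESeq2 called 5 down in the interaction, where it called 279 of 12561 genes down. For the main fit, the shares of all genes called in these comparisons are those given with the members' counts above.

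Bhlhe40, a hypoxia-induced transcriptional repressor, showed the pattern of the enzymes, with 47.0, 55.0, 63.7 and 40.1 CPM in KO-MI, 53.5, 60.8, 65.7 and 57.8 CPM in WT-MI, 23.9, 23.2, 26.5 and 18.8 CPM in KO-SH, and 48.9, 50.1, 43.0 and 50.7 CPM in WT-SH. It was lower in KO than in WT after sham (log2 -1.06 ± 0.13, adjusted p = 2.61e-05) and rose in KO with infarction (1.15 ± 0.13, adjusted p = 3.85e-05), with an interaction of 0.85 ± 0.17 (adjusted p = 0.0116). Pygl, a glycogen phosphorylase, had 25.7 to 30.9 CPM in KO-MI, 26.3 to 31.9 CPM in WT-MI, 16.4 to 20.8 CPM in KO-SH and 28.1 to 32.9 CPM in WT-SH, and its interaction was 0.72 ± 0.14 (adjusted p = 0.00669). Pdk3, a pyruvate dehydrogenase kinase, had 23.8 to 30.8 CPM in KO-MI, 20.9 to 31.9 CPM in WT-MI, 15.4 to 18.6 CPM in KO-SH and 21.8 to 30.7 CPM in WT-SH (interaction 0.77 ± 0.19, adjusted p = 0.0297). These 3 genes were thus lowest in KO-SH.

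Other genes moved differently. Pdk4, the pyruvate dehydrogenase kinase that accompanies fatty acid use, had 95.4 to 170 CPM in KO-MI, 90.0 to 115 CPM in WT-MI, 235 to 351 CPM in KO-SH and 136 to 166 CPM in WT-SH, and fell with infarction in KO by 1.12 ± 0.15 on the log2 scale (adjusted p = 0.00024). Stc2, a secreted glycoprotein, was likewise highest in KO-SH, at 11.8 to 14.7 CPM, against 4.99 to 7.26 CPM in WT-SH, with an interaction of -1.06 ± 0.22 (adjusted p = 0.0109). Bpgm, which makes 2,3-bisphosphoglycerate in red cells, and Siah2, a ubiquitin ligase acting on the Egln hydroxylases, were highest in WT-SH, at 47.8 to 59.4 and 10.9 to 17.4 CPM. Both fell with infarction in WT (Bpgm by 0.52 ± 0.11, adjusted p = 0.0135, and Siah2 by 0.60 ± 0.13, adjusted p = 0.0205) and were lower in KO than in WT after sham (Bpgm -0.79 ± 0.11, adjusted p = 0.000113, and Siah2 -0.84 ± 0.13, adjusted p = 0.000414). Hk3, a hexokinase of white blood cells, rose in KO with infarction, with 3.06 to 4.46 CPM in KO-MI and 0.976 to 1.68 CPM in KO-SH (1.58 ± 0.24, adjusted p = 0.000462). Bhlhe41, a relative of Bhlhe40, rose in WT with infarction, with 18 ± 3.5 CPM in WT-MI and 11.8 ± 1.19 CPM in WT-SH (SD, n = 4 each; log2 0.61 ± 0.15, adjusted p = 0.0319).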

How the data were processed

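The authors deposited whole-number counts of reads per gene, with no normalization, for 16 samples. Per the submitters' processing notes, HTSeq 0.13.5 and HISAT2 2.2.1 were used with the mouse build GRCm39, and cutadapt 3.4, bcl2fastq 2.17, DESeq2 and FastQC are also named. The order of these steps, the strand setting and the annotation release are not given in the sources used here. The counter's line for reads in no gene made up 23.7% to 28.2% of a library and its ambiguous line 1.56% to 2.08%, and the 5 lines of no gene were left out of library sizes.

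Counts were scaled to CPM (shares of the scaled library total) with TMM factors in edgeR 4.0.16 (R 4.3.3). Genes kept by filterByExpr over the 4 groups were fitted in 1 quasi-likelihood model of all 16 samples (12 residual degrees of freedom), with Benjamini-Hochberg adjustment over 13412 genes and a threshold of 0.05. The SE is that of the fitted log2 change. Isoform shares were compared by exact permutation in scipy 1.17.1. Gene names, transcript lengths and GC content came from GENCODE M21 (GRCm38), with which 22362 of 22468 gene IDs matched, and promoters from RefSeq. Near-identical genes were found with blastn 2.17.0. The length of a gene is that of its principal transcript; an earlier version used the median over all annotated coding transcripts, which includes incomplete ones, and is kept as an alternative.

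Members, lists and tests were chosen with earlier results of these data known. A member is given in all samples where it was called and had 1 of the 3 smallest adjusted p-values of its role group in a comparison, and other pathway genes where they had 1 of the 4 smallest; 1 gene that this rule names is not reported here. On data simulated for infarction in KO (13412 genes, 200 changed), the fit recovered 56% of changes of 1.5-fold, 84% of 2-fold, 90% of 3-fold and 98% of 5-fold, with 0 false calls in an unchanged contrast. No change below 1.5-fold was simulated, and the measured data had 2220 genes called in that comparison. These shares therefore need not hold for the measured data. Alternatives were other scalings, DESeq2 1.42.0, other filters, a replicate block, a length and GC correction, haemoglobin and mitochondrially encoded genes left out, fits of only the samples compared and the leaving out of libraries. Leaving out together 3 libraries that stand apart on the fourth principal component (KO-MI 4, WT-MI 2 and WT-SH 2) and the correction with median lengths were chosen after seeing the data.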

Additional observations from a re-analysis of the deposited data

Results flagged for a closer look

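In 9 of 144 groups of 4 samples (6.25%, where chance gives about 1 in 20), 1 sample lay far from the others of its group. Vhl had 9.58 CPM in KO-MI 3, against 8.35 to 8.36 CPM in the other KO-MI samples. Ndrg1 had 24.4 CPM in WT-MI 1, against 20.1 to 20.3 CPM in the others of WT-MI. In KO-SH, Epas1 had 250 CPM in replicate 3, against 212 to 218 CPM, while replicate 4 held Tpi1 at 757 CPM, against 812 to 822 CPM, Adm at 6.17 CPM, against 4.93 to 5.14 CPM, and Aldoc at 1.76 CPM, against 1.37 to 1.42 CPM. In WT-SH, Aldoc had 28.1 CPM in replicate 2, against 3.48 to 4.24 CPM, and Pgam1 had 70.3 CPM there, against 80.9 to 81.3 CPM. Ldhb had 1120 CPM in WT-SH 1, against 1390 to 1400 CPM.

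The response to infarction differed between KO and WT by the interaction test for 3 members. The log2 difference of the responses, KO minus WT, was 1.15 for Slc16a3 (1.79 in KO and 0.65 in WT), -0.83 for Epas1 (-0.67 in KO and 0.16 in WT) and -0.40 for Egln1 (-0.09 in KO and 0.31 in WT). Of these, Epas1 kept its call in every alternative.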

How the results depend on the processing

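No called change of a member reversed its direction in any of the 12 other settings or the 16 fits that left out 1 library. Calls kept in all of them were 8 of 21 for KO against WT after sham, 10 of 16 for infarction in KO, 1 of 4 for infarction in WT (Ankrd37) and 1 of 3 for the interaction (Epas1). Leaving out 1 library gave 12 to 17 members up and 1 to 3 down with infarction in KO, 1 to 5 up in WT, 3 to 4 higher and 10 to 15 lower in KO against WT after sham, and 0 to 4 up and 1 to 2 down in the interaction. In WT the count was 1 without WT-MI 1 or WT-SH 4, where 44 and 92 of all genes rose, against 177 in the main fit. After sham the lower count was 10 without KO-SH 2 or WT-SH 3, and 11 without KO-SH 4. In these 3 fits 686, 678 and 651 of all genes were lower, against 1038 in the main fit. The interaction gave 3 members up by DESeq2 and 9 without KO-MI 4, WT-MI 2 and WT-SH 2 (left out together). Over all genes it called 353 of 12561 and 647 of 13379 up in these settings, against 221 of 13412 in the main fit. Without the 3 libraries with almost no Y-linked reads, 1 member fell with infarction in KO, 2 were higher in KO than in WT after sham, and 1 was down in the interaction. Over all 13466 genes the same 3 counts were 535, 572 and 61, against 1075, 1019 and 147 in the main fit. The length and GC correction called 5 members down with infarction in KO, where 1342 of 13392 genes fell, against 1075 of 13412 without it. With median transcript lengths in that correction, 8 were lower after sham, where 953 of 13392 genes were lower, against 1038 of 13412 without it. Fitting only the samples compared left 2 up in WT with infarction, where 107 of 12899 genes rose. With infarction in KO this fit added Aldoc up (1.43, adjusted p = 0.00117) and Ndrg1 down (-0.32, adjusted p = 0.0328). After sham it added Hk1, Pgk1 and Adm as lower, where it called 3211 of 12988 genes, against 2057 of 13412 in the main fit.

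Same-numbered samples of different groups correlated at -0.0968 to 0.475 (4 of 24 pairs over 0.1, and 5 of 16 samples best with their own number), so the numbers were not taken to pair samples. The replicate block gave 14 members up and 2 down with infarction in KO (1175 and 1238 of all genes). After sham it gave 4 higher and 16 lower (1159 and 1043 of all genes), and in the interaction 2 up (194 of all genes). These were not the same genes as without the block: the interaction of Slc16a3 was lost (adjusted p = 0.0526) and those of Aldoc (2.71, adjusted p = 0.0369) and Eno1 (0.56, adjusted p = 0.0431) gained, while after sham Eno3 and Pfkp were lost and Adm gained. Over all genes, the count called with infarction in KO was 3958 without those same 3 libraries and 1291 without those with few Y-linked reads, against 2220. The cause of these shifts was not tested.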
